A study of Homo sapiens with 9 samples.

Results

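The comparison described here set EPC2 cells transfected with a FOXF1 plasmid against EPC2 cells transfected with an empty vector, and it used 6 of the 9 RNA sequencing libraries of the study, 3 in each group. The members were chosen by the treatment in the sample labels, with no use of measured values. Both groups received DNA with the same reagent, Lipofectamine 2000, so the plasmid insert is the labelled difference between them. The other 3 libraries came from untreated EPC2 cells, and their levels are given beside the members' values. These untreated libraries also entered the filter on low counts, the scaling and the estimate of spread in the main fit. The labels describe EPC2 as a normal squamous cell line of the human esophagus and give the genotype as control in the empty vector and untreated groups and as overexpression in the plasmid group. The sources used here do not give the time between transfection and RNA extraction, the promoter of the plasmid or the share of cells that took it up. The design text speaks of biological triplicates, without saying whether these were separate cultures, so the p-values below reflect the spread of 3 libraries a group, which may be technical in part. The title of the series asks of FOXF1 whether it promotes metaplasia of the Barrett type, trans-differentiation and wound repair.

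FOXF1 is a forkhead transcription factor. In the embryo it is expressed in the mesenchyme beneath the gut and lung epithelium, where the Hedgehog ligands released by the epithelium induce it, and it regulates genes of the stroma, smooth muscle and blood vessels. Barrett's esophagus is the replacement of the squamous lining by a columnar epithelium that can hold mucous and intestinal cells. The mitochondrial genome, from which several genes of this comparison come, is transcribed in long precursors from both strands, which are then cut into messenger, ribosomal and transfer RNAs. Its messenger RNAs encode core subunits of the respiratory chain and ATP synthase, while all other subunits are encoded in the nucleus.

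The 6 libraries held between 34390666 and 39708872 counts. The labels call EPC2 a squamous line. It had no read of TP63, the transcription factor that defines squamous basal cells, nor of SOX2 in any of the 9 libraries. These were the only 2 of 25 squamous basal genes without a read. In all, 11 of the 25 were below 1 CPM (counts scaled to a common library size) in every library. That list summed to 286.7 to 306.1 CPM with the FOXF1 plasmid and 290.5 to 304.8 CPM with the empty vector. Of 40 squamous differentiation genes, 13 had no read and 22 were below 1 CPM in every library. They summed to 746 to 775.7 and 694.8 to 736.2 CPM. Of 12 epithelial markers, TP63 and GRHL2 had no read and 5 were below 1 CPM in every library. The summed level of this list was 3957 to 4211 CPM with the FOXF1 plasmid and 3448 to 3870 CPM with the empty vector, owed mainly to simple-epithelial keratins. Fibroblast and smooth muscle markers summed to 981.1 to 1093 and 866.7 to 971.4 CPM, with COL1A2, LUM and POSTN at 0 reads and 11 of 16 below 1 CPM. Endothelial markers summed to 11.98 to 13.06 and 11.32 to 15.39 CPM (EMCN and CLDN5 at 0 reads) and leukocyte markers to 10.35 to 11.63 and 9.88 to 11.15 CPM (7 of 11 at 0 reads, among them PTPRC). The 2 groups did not overlap in the summed epithelial and fibroblast lists, and the part of this in other results was not tested. These sums rest on library sizes scaled by TMM (trimmed mean of M values). Its factors were 1.045 to 1.12 for the empty vector libraries and 0.9886 to 1.029 for the FOXF1 plasmid libraries. Without these factors the fibroblast sums of the groups overlap, and the epithelial sums were not examined that way. Empty vector replicate 1 stood apart from its group in its trend with GC content, and so did FOXF1 plasmid replicate 2. Across 16213 genes the deviation of empty vector replicate 1 from the mean of the 6 libraries had a Spearman correlation with GC content of 0.33. It was -0.31 and -0.53 in the other 2 empty vector libraries and 0.08, 0.42 and 0.08 in the FOXF1 plasmid libraries. Counts of called genes are therefore also given without empty vector replicate 1, and with other libraries left out. Since that library lay on the side of the plasmid libraries, leaving it out moves the groups apart. The larger counts without it are therefore no measure of the effect of the insert.

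FOXF1 itself (ENSG00000103241; chromosome 16, 86510527 to 86515418, plus strand, GRCh38) separated the groups without overlap. It had 367, 184 and 141 reads in FOXF1 plasmid replicates 1, 2 and 3, and 0, 0 and 6 reads in the empty vector libraries. The untreated libraries had 1, 0 and 0 reads. On library sizes scaled by TMM (trimmed mean of M values), which is the CPM scale of all levels below, the plasmid libraries were at 9.12, 5.41 and 3.76 CPM and the third empty vector library at 0.14 CPM. All 3 plasmid libraries lay above all 6 others, with replicate 1 highest. The fitted log2 fold change was 6.92 ± 0.51 (SE), with an adjusted p of 8.8e-10 by the edgeR quasi-likelihood test over 16366 genes. That value rests on the 6 reads of empty vector replicate 3: without this library the reference is at 0 reads and the fitted value, 10.85, is no bound. Whether a FOXF1 read came from the plasmid or from chromosome 16 cannot be told from the counts. The neighbours of FOXF1 on chromosome 16 gave no call: FENDRR, a noncoding RNA gene transcribed away from FOXF1, had no read in the 6 libraries, and the log2 fold change was 0.08 ± 0.10 for the forkhead gene FOXC2 and -0.06 ± 0.13 for FOXL1 (adjusted p = 0.875 and 0.932, edgeR).

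Beyond FOXF1, the 2 transfected groups were close. The edgeR quasi-likelihood test called 9 genes higher with the FOXF1 plasmid, 0.055% of those tested, and 0 lower, at an adjusted p below 0.05. At an unadjusted p below 0.05 there were 833 higher and 710 lower genes, 5.09% and 4.34% of those tested. The 9 were FOXF1, 4 genes of the mitochondrial genome, 3 nuclear pseudogenes of that genome, and PRAF2. The quartiles of the log2 fold changes were -0.15 and 0.10, and their outer 5% tails began at -0.49 and 0.42. Among the 11459 genes whose mean log2 CPM was 1 or more, FOXF1 was the only gene with a fold change beyond 2-fold, and 11347 had a 95% interval that lay wholly within 2-fold. The median SE of these genes was 0.10 on the log2 scale. DESeq2 called 106 genes higher (4.41% of the 2405 genes to which it gave an adjusted p) and 2 lower (0.0832%; CTNNB1 and HSP90AA1), and limma-voom called 13 (0.0794%) and 0. As a measure that needs no threshold, the groups did not overlap for 1200 genes that were higher (7.33%) and 929 that were lower (5.68%) with the FOXF1 plasmid. When libraries were scaled by their totals alone these became 462 (2.82%) and 2360 (14.4%), and the median over all genes shifted from -0.01 to -0.11 on the log2 scale. Directions of small size below are relative to this choice.

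**Figure D1:**
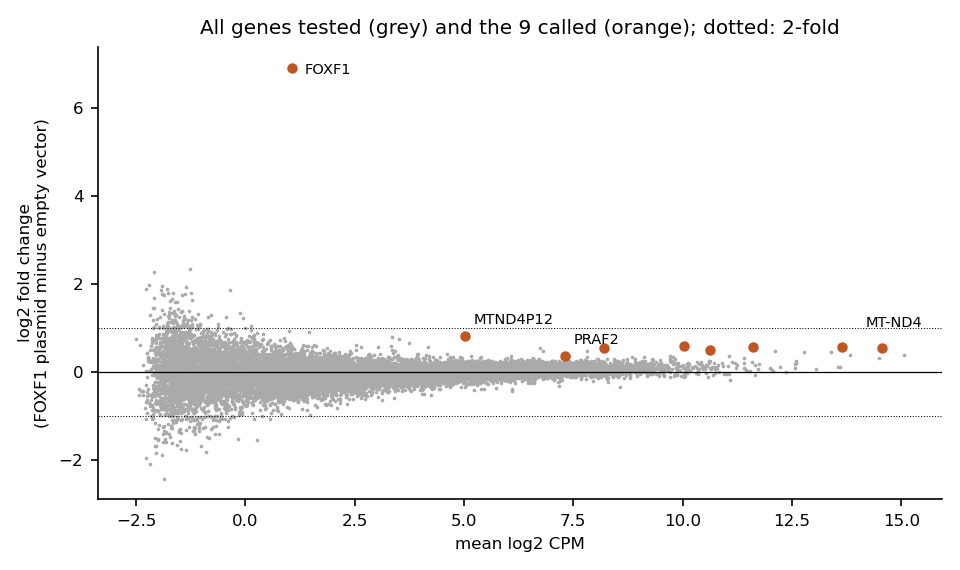
Log2 fold change (FOXF1 plasmid minus empty vector) against mean log2 CPM for each of the 16366 tested genes. The 9 called genes are orange and dotted lines mark 2-fold: FOXF1 stands at 6.92, and the other 8 lie between 0.35 and 0.81, all at a mean log2 CPM above that of FOXF1.

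**Figure D2:**
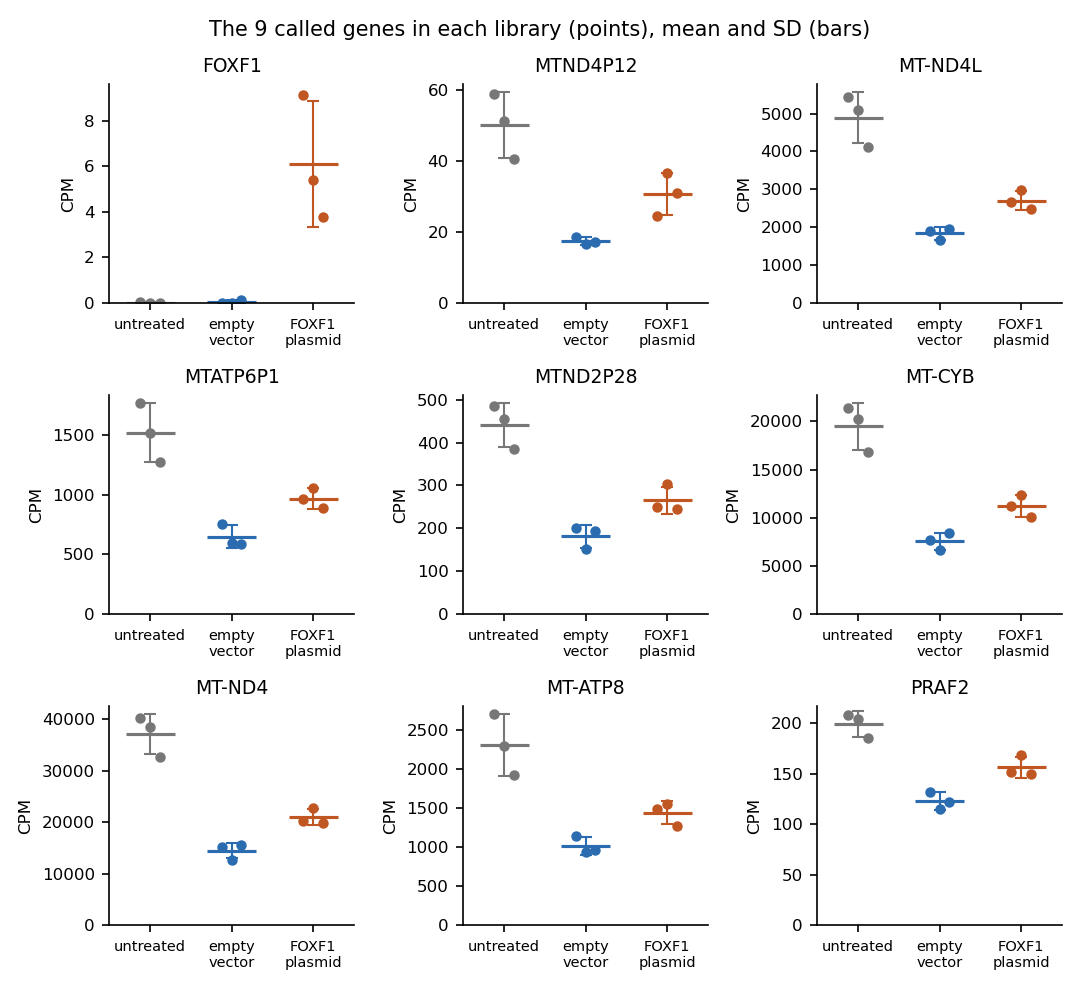
Level of each of the 9 called genes in each library (points), in CPM on linear axes from 0, with the mean and SD of each group of 3 (bars). The FOXF1 plasmid libraries lie above the empty vector libraries in every panel, and in every panel but that of FOXF1 the untreated libraries lie above both.

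The genes of the mitochondrial genome formed the main group of calls. Of its 13 protein genes, MT-ND4L, MT-ND4, MT-CYB and MT-ATP8 rose, 11 of 13 were higher without overlap between groups (background 7.33%), and the median log2 fold change of the 13 was 0.44, against -0.01 over all genes. MT-CYB, the mitochondrially encoded subunit of complex III, was at 11192, 12305 and 10095 CPM in the FOXF1 plasmid libraries and at 7721, 6614 and 8366 CPM in the empty vector libraries. The groups did not overlap, plasmid replicate 2 was highest and empty vector replicate 2 lowest, and the log2 fold change was 0.57 ± 0.10 (SE; adjusted p = 0.00573, edgeR). MT-ND4, a membrane subunit of complex I, was at 20292, 22780 and 19819 CPM against 15106, 12741 and 15530 CPM. Its log2 fold change was 0.54 ± 0.09 (adjusted p = 0.00665, edgeR), and again no library of one group reached the other. MT-ND4L, a small complex I subunit whose reading frame shares 7 bases with that of MT-ND4, was at 2666, 2973 and 2471 against 1900, 1654 and 1958 CPM. Its log2 fold change of 0.56 ± 0.09 had the smallest adjusted p of the 13, at 0.00452 (edgeR). MT-ATP8, an ATP synthase subunit that shares 46 bases with MT-ATP6, was at 1488, 1551 and 1269 against 1143, 941.5 and 957.5 CPM (0.50 ± 0.10, adjusted p = 0.0244, edgeR). Reads in such shared bases cannot be assigned to 1 gene.

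The other mitochondrial messenger RNAs did not pass the edgeR test. For MT-ATP6 and MT-ND2 alike the log2 fold change was 0.44 (adjusted p = 0.0541 for each, edgeR), and MT-ND5 had 0.47 (adjusted p = 0.0643). The complex IV genes MT-CO1, MT-CO2 and MT-CO3 had smaller values of 0.32, 0.39 and 0.38, with adjusted p of 0.249, 0.2 and 0.178. MT-ND3 had 0.36 (0.178), and in MT-ND1 the groups overlapped, at 11215, 17025 and 13628 against 8951, 7640 and 12751 CPM (0.51 ± 0.13, adjusted p = 0.162). MT-ND6 was the single protein gene with a negative value. It is also the single one encoded on the light strand, the strand that holds few genes. Its levels were 171.5, 87.75 and 91.9 CPM against 174.3, 165.1 and 103.2 CPM, so the groups overlapped (-0.33 ± 0.19, adjusted p = 0.608, edgeR). With a library left out its value ran from -0.72 to -0.17, with no call. The strand setting of the counting is not given in the sources used here, and without it reads of MT-ND6 cannot be told from those of the opposite strand. The ribosomal RNAs MT-RNR1 and MT-RNR2, which lie at the start of the heavy-strand precursor, overlapped as well and both had 0.20 (adjusted p = 0.493 and 0.523). Libraries were made from polyadenylated RNA, in which ribosomal RNA is captured only in part.

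**Figure D3:**
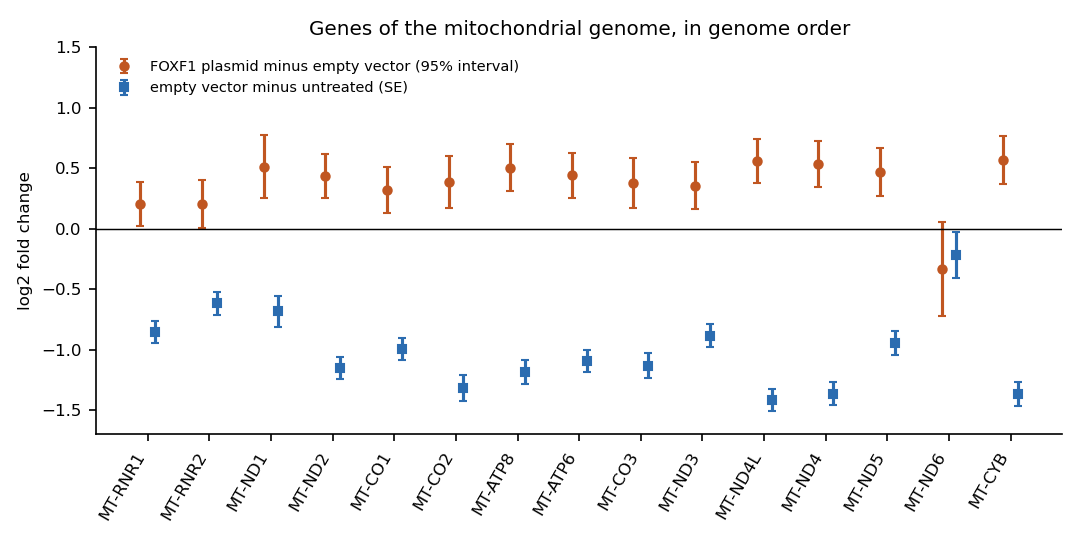
Log2 fold change of the 13 protein genes and 2 ribosomal RNA genes of the mitochondrial genome, in genome order, for the FOXF1 plasmid minus the empty vector (circles, bars are 95% intervals) and the empty vector minus untreated cells (squares, bars are SE). The comparisons share the empty vector libraries; circles lie above 0 in all but MT-ND6 (-0.33), and squares below 0 in all.

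As a share of all counts, mitochondrially encoded genes made up 13.9%, 14.7% and 13.7% of the FOXF1 plasmid libraries and 11.7%, 10.3% and 11.7% of the empty vector libraries. The groups did not overlap, with a difference of 2.87 percentage points (two-sided exact permutation p = 0.1, the smallest value that 3 against 3 libraries allow). The 3 untreated libraries were higher than both, at 22.4%, 21.6% and 18.6%. In the comparison of the empty vector with untreated cells, which shares the empty vector libraries, 12 of the 13 protein genes fell (median log2 fold change -1.13) by the edgeR test, where 9.37% of all genes fell and 19.6% were called in either direction. Mean levels with the FOXF1 plasmid thus lay between those of the empty vector and of untreated cells for all of these genes but MT-ND6; MT-CYB averaged 19492 CPM in untreated cells. The order of mitochondrial levels among plasmid libraries was not that of FOXF1: replicate 1 had the most FOXF1 reads and replicate 2 the highest mitochondrial share. Within mitochondrial reads, genes of the light strand made up 0.14%, 0.06% and 0.07% with the FOXF1 plasmid and 0.17%, 0.20% and 0.10% with the empty vector (exact permutation p = 0.2, two-sided); this share too depends on the strand setting of the counting. In bulk libraries, fewer cells with a given level and less RNA per cell cannot be told apart.

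The calls of the mitochondrial genes depended on single libraries, their sizes much less. Without FOXF1 plasmid replicate 2, FOXF1 was the only gene called (0.00597%), and MT-ND4L, MT-ND4, MT-CYB and MT-ATP8 had 0.48, 0.47, 0.49 and 0.44 (adjusted p = 0.171, 0.199, 0.199 and 0.516, edgeR). Without empty vector replicate 2 the calls were FOXF1 and the pseudogene MTND4P12 (0.012%), and the same 4 genes had 0.49, 0.45, 0.48 and 0.45 (adjusted p = 0.0878, 0.0984, 0.0984 and 0.291). MT-ATP8 was also not called without FOXF1 plasmid replicate 1 or empty vector replicate 3 (0.48 and 0.46; adjusted p = 0.107 and 0.151), nor with scaling by library totals (0.41; 0.122). Without empty vector replicate 1, 11 of the 13 protein genes rose, with a median of 0.50. With offsets for GC content and transcript length the median of the 13 was 0.46 and with library totals 0.34, so the direction of this group held under each scaling. Other settings called more of the 13: with RLE factors, with GC and length offsets and by limma-voom, MT-ATP6, MT-ND2 and MT-ND5 were called beside the 4, and by DESeq2 MT-ATP6, MT-ND2 and MT-CO1, 7 of 13 in each case.

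The 3 nuclear pseudogenes called are copies of mitochondrial sequence, and their reads are hard to tell from those of the mitochondrial genes. The sequences below, from the GENCODE 29 transcripts on GRCh38, show stretches of 90 bases of 2 of these pairs, with the bases at which the members differ in capitals, to let a reader see how few of them could place a read. Over the whole aligned length MT-ND4 and MTND4P12 were 95.7% identical, MT-ATP6 and MTATP6P1 98.5%, and MT-ND2 and MTND2P28 98.4%. The longest run without a difference was 71, 141 and 266 bases.
MT-ND4, chrM:10784-10873, plus strand: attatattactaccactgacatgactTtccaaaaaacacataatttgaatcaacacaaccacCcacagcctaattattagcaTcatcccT
MTND4P12, chr5:134927923-134928012, minus strand: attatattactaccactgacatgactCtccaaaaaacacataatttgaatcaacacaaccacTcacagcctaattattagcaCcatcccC
MT-ATP6, chrM:8527-8616, plus strand: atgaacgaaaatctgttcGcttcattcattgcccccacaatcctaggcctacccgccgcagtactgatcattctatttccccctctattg
MTATP6P1, chr1:633696-633785, plus strand: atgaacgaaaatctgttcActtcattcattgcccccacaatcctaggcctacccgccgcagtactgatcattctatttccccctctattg

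MTND4P12 was at 24.56, 36.55 and 30.88 CPM with the FOXF1 plasmid and at 18.64, 16.52 and 17.3 CPM with the empty vector. Its log2 fold change of 0.81 ± 0.12 (SE) was the highest of the called genes after FOXF1 (adjusted p = 0.00126, edgeR), and the groups did not overlap. MTATP6P1 was at 960.6, 1054 and 884.9 against 756, 594 and 588.9 CPM (0.58 ± 0.10, adjusted p = 0.00563), and MTND2P28 at 249.2, 302.2 and 245.8 against 200, 151 and 194.4 CPM (0.55 ± 0.09, adjusted p = 0.00573). The copies carried the direction of the genes they resemble, and untreated means of 50.15, 1518 and 440.9 CPM lay above both groups as they did for those genes. Without FOXF1 plasmid replicate 2 none of the 3 was called, at 0.66, 0.51 and 0.44 (adjusted p = 0.052, 0.171 and 0.199). Without empty vector replicate 2 MTATP6P1 and MTND2P28 were not called (0.52 and 0.43; 0.0984 and 0.104), and without replicate 3 of that group MTATP6P1 was not (0.52; 0.0616). Whether any of these reads came from the nuclear copies was not tested.

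PRAF2 (ENSG00000243279; chromosome X, 49071156 to 49074071, minus strand, GRCh38) was the only nuclear gene other than FOXF1 and the pseudogenes to be called. It encodes a membrane protein of the PRA1 family, which resides in the endoplasmic reticulum and early secretory pathway. Its level was 152, 168.5 and 149.5 CPM with the FOXF1 plasmid and 132.3, 114.8 and 121.7 CPM with the empty vector. The groups did not overlap, and the log2 fold change was 0.35 ± 0.07 (SE; 95% interval 0.21 to 0.49; adjusted p = 0.0391, edgeR). Untreated cells averaged 199.4 CPM, above both. The call was lost in 5 of the 6 fits that left out a library, with the lowest value, 0.29 (adjusted p = 0.815), without FOXF1 plasmid replicate 2. The values without FOXF1 plasmid replicates 1 and 3 were 0.37 and 0.38 (0.0811 and 0.0528), and without empty vector replicates 2 and 3 they were 0.30 and 0.34 (0.675 and 0.117). It was also lost with offsets for GC content and length, at 0.26 (adjusted p = 0.111), with library totals, at 0.25 (0.274), and when mitochondrial genes and pseudogenes were left out, at 0.34 (0.2). Of its relatives, RABAC1, the founding member that binds Rab GTPases, was at 136.2, 133 and 137.6 against 132, 120.8 and 122.9 CPM (0.12 ± 0.06, adjusted p = 0.579), and ARL6IP5 had -0.31 ± 0.15 (0.536). The promoter of PRAF2 is shown because this is the single called nuclear gene that is neither FOXF1 nor a mitochondrial pseudogene. It covers 250 bases before to 50 after the start, from RefSeq on GRCh38.p14, and holds no match to GTAAACA on either strand, a core sequence bound by forkhead factors. That motif is found in 3.42% of 35116 RefSeq promoters of the same length and in 2.48% of those of tested genes.
PRAF2 promoter, chrX:49073953-49074252, minus strand: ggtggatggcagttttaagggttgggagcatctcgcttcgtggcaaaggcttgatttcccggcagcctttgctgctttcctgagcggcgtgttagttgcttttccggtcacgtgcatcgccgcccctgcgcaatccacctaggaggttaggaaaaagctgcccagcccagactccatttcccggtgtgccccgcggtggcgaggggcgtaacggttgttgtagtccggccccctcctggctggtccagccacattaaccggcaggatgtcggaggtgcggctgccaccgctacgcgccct

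Nuclear genes of the respiratory chain and of ribosomes gave no call by the edgeR test, and the median of each list was small. DESeq2 called 3 complex I genes, 2 of complexes II to V and 4 cytosolic ribosomal proteins higher and 0 lower (4.41% and 0.0832% of all genes to which it gave an adjusted p). Of 36 tested subunits of complex I among 37, 28 were positive, 8 were higher without overlap and 0 lower (backgrounds 7.33% and 5.68%), and the median log2 fold change was 0.11. NDUFB10, an accessory subunit of the membrane arm, was at 257.6, 261.5 and 262.2 CPM with the FOXF1 plasmid against 239.9, 187.5 and 215 CPM (0.28 ± 0.07, adjusted p = 0.166, edgeR). NDUFS8, an iron-sulfur subunit, was at 320.8, 347.7 and 339.2 against 301.2, 255.2 and 290.3 CPM (0.25 ± 0.07, adjusted p = 0.2). In both genes empty vector replicate 1 was the nearest to the plasmid libraries. The 40 subunits of complexes II to V had a median of 0.05, with 7 higher without overlap and 0 lower. COX8A, of complex IV, was at 185, 194.1 and 198.1 against 175.5, 148.4 and 155.2 CPM (0.27 ± 0.07, adjusted p = 0.18). The 78 cytosolic ribosomal proteins had a median of 0.09, and 12 were higher without overlap, among them RPS15 (0.32, adjusted p = 0.137), RPL23A (0.36, 0.156) and RPL28 (0.32, 0.216), each of which can share reads with processed pseudogenes. Of the 76 mitochondrial ribosomal proteins, 12 were higher and 6 lower without overlap, with a median of 0.05. With scaling by library totals the medians of these 4 lists were 0.02, -0.05, -0.01 and -0.04, beside -0.11 for all genes, so their sign turned in 3 of 4. Counts without overlap then became 3 higher and 2 lower for complex I, 3 and 2 for complexes II to V, 8 and 2 for cytosolic ribosomal proteins, and 5 and 13 for mitochondrial ribosomal proteins (backgrounds 2.82% and 14.4%). The 25 tested factors that copy, transcribe or process the mitochondrial genome had a median of -0.09, with 1 higher and 1 lower without overlap. Among them POLRMT, the mitochondrial RNA polymerase, had 0.09 ± 0.07 and TFAM, which packs and activates mitochondrial DNA, -0.31 ± 0.16 (adjusted p = 0.733 and 0.561). Without empty vector replicate 1, 4 complex I genes, 5 of complexes II to V, 1 mitochondrial and 12 cytosolic ribosomal proteins were called higher and 0 lower, where 0.92% of all genes were called higher. These lists had 0 calls in every fit that left out a different library.

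**Figure D4:**
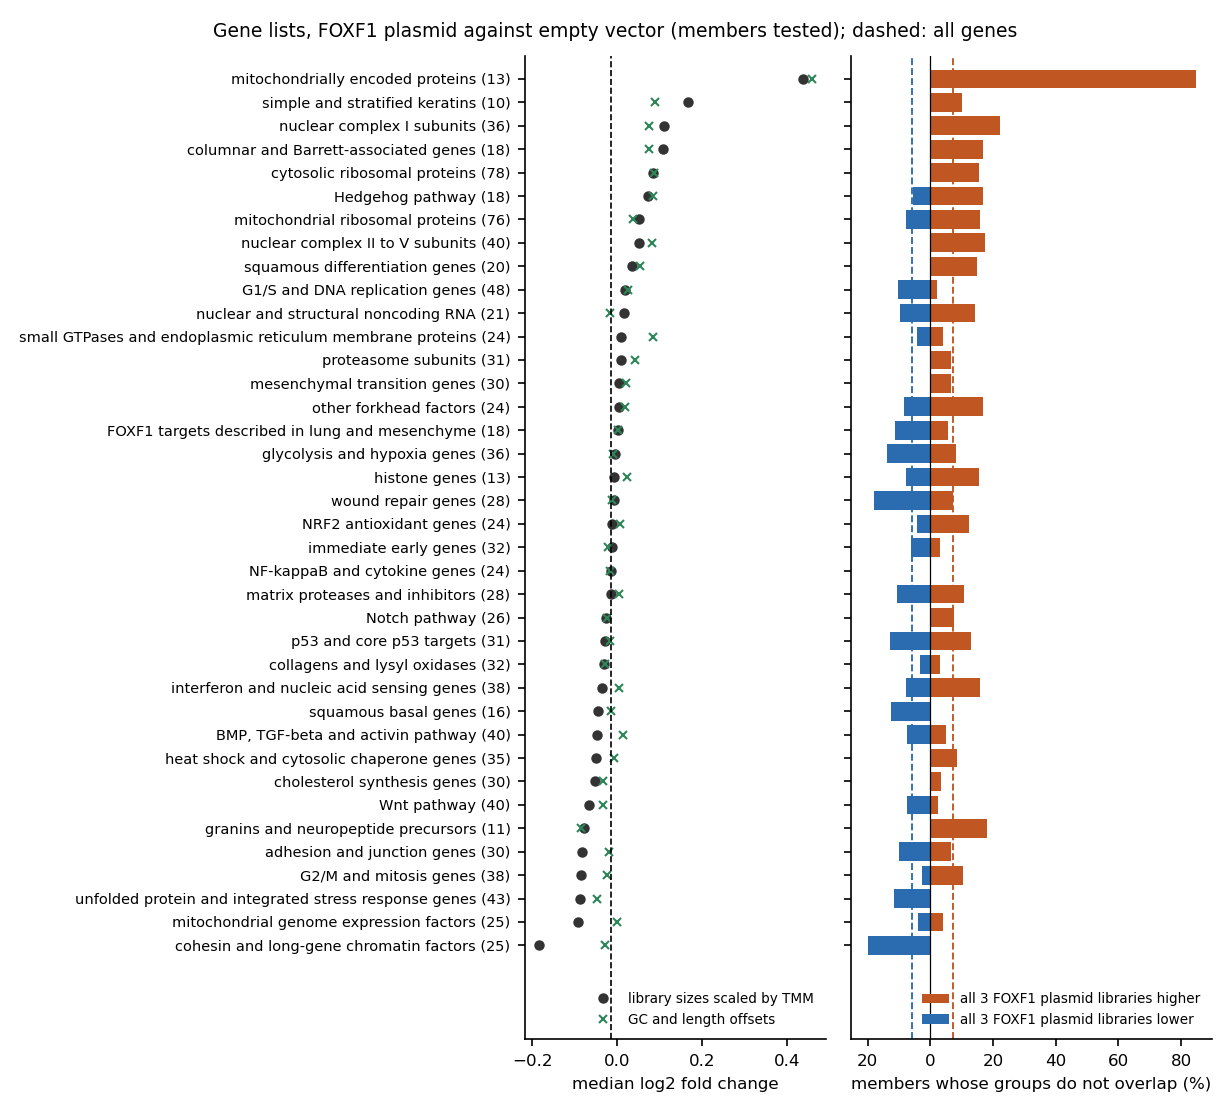
Left, the median log2 fold change (FOXF1 plasmid minus empty vector) of each gene list with at least 10 tested members, with TMM scaling (dots) and with GC and length offsets (crosses); right, the percent of members whose groups did not overlap, higher and lower; dashed lines give the same over all genes. Mitochondrially encoded proteins stand at 0.44; the other lists lie between -0.19 (cohesin and long-gene chromatin factors) and 0.17 (keratins).

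Genes of squamous and columnar epithelium were not called by the edgeR test, and DESeq2 called 1, CSTB, higher. DESeq2 called 4.41% of all genes to which it gave an adjusted p higher. Of 46 columnar and Barrett-associated genes only 18 passed the filter on low counts; their median was 0.11 (0.01 with library totals), 3 were higher and 0 lower without overlap (backgrounds 7.33% and 5.68%). KRT18, a simple-epithelial keratin, was at 1255, 1328 and 1269 CPM with the FOXF1 plasmid and at 1181, 1017 and 1120 CPM with the empty vector. The groups did not overlap, and the log2 fold change was 0.22 ± 0.08 (95% interval 0.06 to 0.37, adjusted p = 0.377, edgeR). Its partner KRT8 was at 1401, 1484 and 1426 against 1409, 1277 and 1267 CPM, with overlap through empty vector replicate 1, and an interval of -0.01 to 0.26. KRT7 and KRT19, further simple keratins, had 0.16 and 0.18 (adjusted p = 0.494 and 0.451), and the progenitor factor SOX9 was at 14.96, 14.77 and 13.92 against 14.18, 15.5 and 15.32 CPM. The SOX9 interval ran from -0.27 to 0.18. The 95% intervals of these 5 genes all lay between -0.27 and 0.37 on the log2 scale. Of the genes of mucous and intestinal cells, TFF1 and TFF3 had no read in any of the 9 libraries, and MUC5AC and CDX1 none in the transfected ones. MUC1, a membrane mucin of simple epithelia, was at 70.91, 84.36 and 74.33 against 59.34, 55.35 and 65.1 CPM. All 3 plasmid libraries lay above the others (0.35 ± 0.08, adjusted p = 0.113, edgeR), and MUC1 was 1 of only 3 tested mucins of 13. Of 16 tested squamous basal genes, 0 were higher and 2 lower without overlap (LAMB3 and CDH3, both -0.10), and KRT5 was at 0.27, 0.26 and 0.40 against 0.33, 0.20 and 0.30 CPM. Of 20 tested squamous differentiation genes 3 were higher without overlap: CSTB, a protease inhibitor of the cornified envelope (0.24, adjusted p = 0.233), PITX1 (0.19, 0.376) and S100A8 (0.46, 0.796). With library totals, 2 of the 20 were higher and 2 lower.

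Genes of wound repair, mesenchymal transition and matrix had medians near that of all genes. The 28 tested wound repair genes had a median of -0.01, with 2 higher and 5 lower without overlap (backgrounds 7.33% and 5.68%), and 0 and 10 with library totals (backgrounds 2.82% and 14.4%). PLAT, the tissue plasminogen activator, was at 13.07, 12.45 and 12.29 CPM against 15.39, 16.93 and 15.37 CPM (-0.33 ± 0.11, adjusted p = 0.314, edgeR). TIMP1, an inhibitor of matrix metalloproteinases, was at 733.4, 743.2 and 764.7 against 716.3, 579.7 and 602.5 CPM (0.24 ± 0.08, adjusted p = 0.376). SDC4, a heparan sulfate proteoglycan of focal adhesions, was at 135.5, 137.2 and 134.2 against 153.8, 153 and 152 CPM; the groups were narrow and apart by a log2 fold change of -0.17 ± 0.07 (adjusted p = 0.396). ITGA2, a collagen receptor chain, had -0.46 (0.521). Among the 36 genes of mesenchymal transition, 30 were tested, with a median of 0.00, and 2 were higher without overlap: TWIST2 (0.25, adjusted p = 0.377) and THY1 (0.17, 0.437). VIM and CDH1, whose opposite changes mark the transition, had 0.12 ± 0.07 and -0.17 ± 0.14 (adjusted p = 0.59 and 0.745). Of 16 fibroblast and smooth muscle markers 6 were tested, with a median of 0.09. Without overlap 2 were higher and 0 lower, under library totals too. The highest value in this list was 1.96, in a weakly expressed gene (mean log2 CPM below 1), and its smallest adjusted p was 0.376 (edgeR). Across the 6 fits that each omitted 1 library, the smooth muscle genes ACTG2 and ACTA2 had values of 1.68 to 2.35 and 0.13 to 0.31. Neither was called in any of these fits. Among 32 tested collagens and lysyl oxidases 1 was higher and 1 lower without overlap (1 and 7 with library totals). The lower one was LOX, a collagen cross-linking enzyme that is also in the list of FOXF1 targets. It was at 38.85, 39.52 and 37.76 against 43.8, 47.66 and 63.98 CPM, the last value far above the rest (-0.42 ± 0.10, adjusted p = 0.115). Without that library, empty vector replicate 3, the log2 fold change was -0.24 (adjusted p = 0.614, edgeR). LOXL1, its relative, had 0.18 (0.391), and COL1A1 had 0.11 ± 0.07 (0.678). SPINT1, an epithelial inhibitor of serine proteases, was at 80.63, 89.95 and 80.97 against 72.08, 66.31 and 69.15 CPM (0.28 ± 0.07, adjusted p = 0.162 by edgeR). DESeq2 called it higher, as it did 4.41% of all genes to which it gave an adjusted p.

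Pathways linked to FOXF1 in development gave no call by the edgeR test. DESeq2 called TGFB1, RFNG and FOXM1 higher and CTNNB1 lower, each the single call in its list. Of all genes to which it gave an adjusted p, DESeq2 called 4.41% higher and 0.0832% lower. The Hedgehog list had 18 of 20 genes tested, a median of 0.07 (-0.02 with library totals), and 3 higher and 1 lower without overlap (backgrounds 7.33% and 5.68% here and for the other lists). GLI1, a transcription factor and target of the pathway, was at 4.35, 4.41 and 4.16 CPM with the FOXF1 plasmid and at 2.78, 3.79 and 3.37 CPM with the empty vector. The groups did not overlap, but the interval of the log2 fold change ran from -0.06 to 0.82 (adjusted p = 0.603, edgeR). PTCH1, the Hedgehog receptor and another target, had 0.03 ± 0.17 (0.971), the signal transducer SMO 0.07 ± 0.07 (0.814), and the ligand SHH -0.53 ± 0.31 (0.611). SHH was at 1.24, 1.38 and 0.93 against 1.41, 1.70 and 2.02 CPM, a level at which the error is wide. Of 40 tested genes of the BMP, TGF-beta and activin pathway, 2 were higher and 3 lower without overlap. The ligand TGFB1 was at 215.7, 250.6 and 223.2 against 192.4, 178.3 and 200.9 CPM (0.27 ± 0.07, adjusted p = 0.169), ID3, a BMP target, had 0.16 (0.472), and BMP4, a ligand, 0.17 ± 0.22 (0.865). Of 40 tested Wnt genes, 1 was higher and 3 lower without overlap. CTNNB1, which encodes beta-catenin, was at 89.43, 81.95 and 87.63 against 102.6, 106.3 and 101.6 CPM (-0.26 ± 0.07, adjusted p = 0.169). WNT10B, a ligand, had 0.72 ± 0.29 (0.451). Of 26 tested Notch genes 2 were higher without overlap, RFNG (0.21, 0.294) and DTX3 (0.20, 0.5). Of 28 targets of FOXF1 described in lung and mesenchyme 18 were tested, with a median of 0.00. Only 24 of 33 other forkhead genes were tested, of which 4 were higher and 2 lower without overlap. With library totals the lower genes were the more numerous in each: 1 higher and 2 lower for Hedgehog, 2 and 6 for BMP, TGF-beta and activin, 1 and 7 for Wnt, 2 and 4 for Notch and 2 and 4 for forkhead genes (backgrounds 2.82% and 14.4%). FOXM1, which drives mitotic genes, was at 829.8, 912.7 and 832.9 against 755.9, 685.1 and 774.6 CPM (0.22 ± 0.07, adjusted p = 0.294), FOXP4 had 0.22 (0.333), and FOXF2, the closest paralog of FOXF1, -0.22 ± 0.17 (0.736).

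Cell cycle genes did not all share a direction. Of 38 genes of G2 and mitosis, 10 had a positive and 28 a negative log2 fold change. Their median was -0.09, and -0.025 with GC and length offsets. Without overlap, 4 were higher and 1 lower (backgrounds 7.33% and 5.68%). With library totals these were 3 and 7 (backgrounds 2.82% and 14.4%). The higher ones included CDC20, an activator of the anaphase-promoting complex, at 585.8, 637.6 and 605.8 against 544.7, 491.7 and 550.3 CPM (0.20 ± 0.07, adjusted p = 0.333 by edgeR), and PLK1, a mitotic kinase (0.18, 0.387). DESeq2 called CDC20 higher, as it did 4.41% of all genes to which it gave an adjusted p. The lower one was ASPM, a spindle pole protein, at 2.44, 2.53 and 2.13 against 3.13, 4.11 and 4.51 CPM (-0.73 ± 0.20, adjusted p = 0.218). TOP2A, the topoisomerase of dividing cells, was at 56.82, 54.2 and 69.13 against 58.46, 93.25 and 91.09 CPM. It overlapped through empty vector replicate 1 (-0.43 ± 0.11, adjusted p = 0.169), and MKI67 had -0.06 ± 0.08 (0.878). Of 48 genes of G1, S phase and replication, 1 was higher and 5 lower without overlap (0 and 9 with library totals). ORC5, of the origin recognition complex, was at 2.01, 1.59 and 1.95 against 2.70, 3.27 and 4.26 CPM (-0.88 ± 0.22, adjusted p = 0.163), and RFC1, of the clamp loader, had -0.64 (0.172). Of 31 tested p53 genes 4 were higher and 4 lower without overlap, but 1 and 12 with library totals. MDM2, which targets p53 for degradation, was at 3.73, 2.94 and 3.49 against 4.57, 5.67 and 6.46 CPM (-0.71 ± 0.18, adjusted p = 0.162), while BAX, a death effector, had 0.14 (0.502) and CDKN1A, the cell cycle inhibitor p21, -0.01 ± 0.07 (0.988). Cohesin and long-gene chromatin factors had the lowest median of the lists plotted, at -0.19, with 0 higher and 5 lower without overlap of 25. SMC5 and ATRX had -0.61 and -0.67 (adjusted p = 0.257 and 0.426). Their median longest transcript was 7169 bases and their median GC content 40.8%, against 3227 bases and 49.8% over all genes, and with offsets for both properties the median of the list was -0.03.

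Stress and defence genes were without calls by the edgeR test. DESeq2 called the chaperone gene HSPB1 and the interferon genes IFITM2 and IFITM3 higher and HSP90AA1 lower. It also called 2 of 24 tested NRF2 antioxidant genes and 1 of 36 glycolysis and hypoxia genes higher. Of all genes to which DESeq2 gave an adjusted p, 4.41% were called higher and 0.0832% lower. The NRF2 list had a median of -0.01, with 3 higher and 1 lower without overlap (2 and 4 with library totals). The list of unfolded protein response and integrated stress response genes, of which 40 of 43 rose with the empty vector against untreated cells (background 10.2%), had a median of -0.09 between the transfected groups, with 0 higher and 5 lower without overlap (backgrounds 7.33% and 5.68%; 0 and 17 with library totals, where 2.82% and 14.4% of all genes were). PDIA4, a disulfide isomerase, was at 252, 295.2 and 286.3 CPM with the FOXF1 plasmid and at 301.5, 333.8 and 332.5 CPM with the empty vector (-0.22 ± 0.08, adjusted p = 0.408, edgeR). HSPA5, the main chaperone of the endoplasmic reticulum, was at 903.1, 977.1 and 973.9 against 998.8, 991.1 and 1107 CPM (-0.12 ± 0.07, 0.611), and DDIT3, a death-linked factor of that response, had 0.00 ± 0.14 (0.999). All levels of PDIA4 and HSPA5 in both groups were above the untreated means of 137.6 and 541.4 CPM. Among 35 tested chaperones HSPB1 had 0.21 (adjusted p = 0.326) and HSP90AA1 -0.34, with overlap between groups at 340.6, 318.4 and 398.1 against 370.8, 518.1 and 453.8 CPM (0.169). Of 38 tested interferon and nucleic acid sensing genes, 6 were higher and 3 lower without overlap, but 3 and 6 with library totals. IFITM2, an antiviral membrane protein, was at 205, 233.5 and 217.4 against 195.1, 157.8 and 168.5 CPM (0.33 ± 0.07, adjusted p = 0.0799), and IFITM3 at 892.6, 1005 and 976.9 against 847.3, 716.5 and 778.9 CPM (0.29, 0.147). These paralogs are near-identical in places and can share reads. ISG15 had 0.24 (0.305) and IFIT1 -0.24 (0.88), neither of them called. By sign, 15 of the 38 tested genes of this list were positive and 23 negative. Of 24 tested NF-kappaB and cytokine genes, 0 were higher and 0 lower without overlap (0 and 4 with library totals). MALAT1, a nuclear noncoding RNA, was at 36.66, 31.13 and 39.39 against 40.57, 51.31 and 48.55 CPM (-0.39 ± 0.09, adjusted p = 0.115).

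A rule based on measured values picked genes from both ends of the fold changes, among the 150 genes of smallest p, to be given as a description with no test, leaving out weakly expressed genes, pseudogenes, genes with clone names and genes whose groups overlapped. Of the 15 highest, 6 were further mitochondrial genes. The others were led by C17orf97 (0.90, adjusted p = 0.178, edgeR) and by VGF, a precursor of secreted neuropeptides. VGF was at 7.26, 6.74 and 7.39 CPM with the FOXF1 plasmid and at 4.84, 4.38 and 4.93 CPM with the empty vector, 2 tight and separate groups (0.60 ± 0.15, adjusted p = 0.163). SMAGP, a membrane glycoprotein of epithelial cells, SECTM1 and NXT1, an mRNA export factor, had 0.48, 0.43 and 0.41. At the low end, after ORC5, stood VPS13C, a lipid transfer protein (-0.82, adjusted p = 0.169), TROVE2 (-0.80, 0.257), CXorf23 (-0.75, 0.252), ASPM and MDM2. AHR, the receptor of dioxin and other aromatic compounds, was at 4.45, 3.38 and 3.84 against 5.93, 6.49 and 5.72 CPM (-0.63 ± 0.17, adjusted p = 0.178). Of the candidates under the rule, 118 were higher and 26 lower. Over all genes the groups did not overlap for 7.33% higher and 5.68% lower with TMM scaling, and for 2.82% and 14.4% with library totals. The rule used the TMM scaling, so its counts are no test of direction. The 15 lowest genes had long, AT-rich transcripts, with a median of 6235 bases and 38.2% GC, while the 15 highest had 1123 bases and 51.0% GC. None of the RefSeq promoters matched to the 15 highest (6 promoters of 5 genes) or lowest (18 of 13 genes) held GTAAACA on either strand. The motif is in 2.48% of promoters of tested genes, so sets this small would seldom hold one. Their count of 0 therefore cannot decide whether FOXF1 binds them, which was not tested.

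The same trend ran through the whole comparison. With genes split into 5 equal bins, in the bin of lowest GC content (23.5% to 41.8%) the median log2 fold change was -0.16, with 1.36% of genes higher and 8.45% lower without overlap. In the bin with the highest (58.6% to 74.5%) it was 0.07, with 16.7% higher and 2.16% lower. In the bins of the shortest and the longest transcripts the medians were 0.08 and -0.08. Spearman's correlation of the fold change across 16213 genes was 0.39 with GC content and -0.27 with length, as a description, since genes of a library share its preparation and depth. The trend with GC content was carried by individual libraries: empty vector replicates 2 and 3 were low in GC-rich genes and FOXF1 plasmid replicate 2 was high in them, while empty vector replicate 1 lay on the side of the plasmid libraries and plasmid replicates 1 and 3 had nearly no trend with GC content. Other libraries took part in the trend with length. The correlation with length was 0.08, -0.22 and -0.28 in plasmid replicates 1, 2 and 3, and -0.14, 0.30 and 0.22 in those of the empty vector. Without empty vector replicate 1 the edgeR test called 154 genes higher (0.92%) and 172 lower (1.03%), with the 9 original genes among them. Of the lists, G2 and mitosis genes then had 1 called higher and 6 lower, cytosolic ribosomal proteins 12 and 0, and cholesterol synthesis, unfolded protein response, cohesin, collagen and nuclear noncoding RNA genes 0 and 3 each. None of these lists had a call when a different library was left out. With offsets for GC content and length in all libraries, 14 genes were called higher (0.0855%) and 0 lower; 8 of the 9 original calls were among them, PRAF2 was not. The part of GC content and length in the results on nuclear genes was otherwise not tested.

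**Figure D5:**
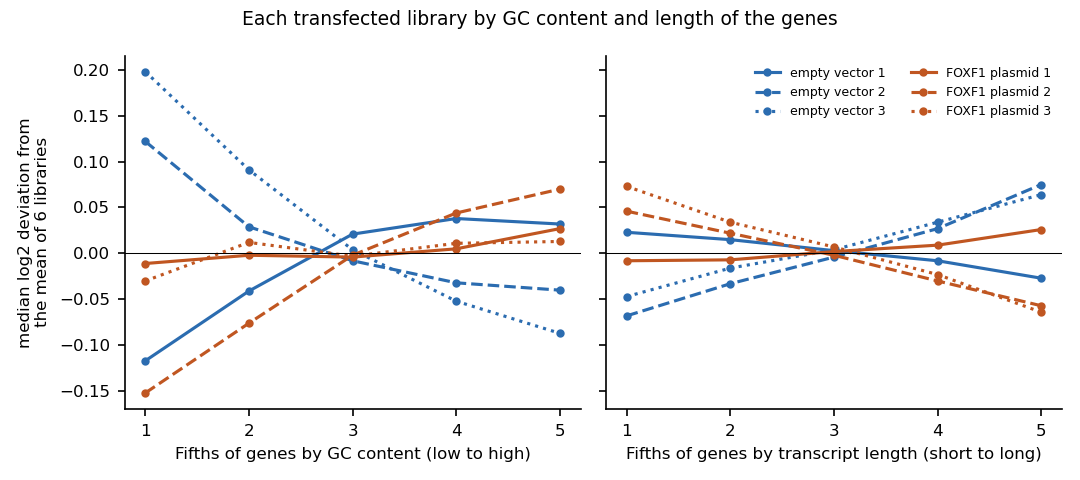
Deviation of each of the 6 libraries from their common mean, as the median log2 deviation in 5 equal bins of genes by GC content (left) and by transcript length (right). Empty vector replicates 2 and 3 fall with GC content, while empty vector replicate 1 rises with FOXF1 plasmid replicate 2.

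Among genes too weakly read to be tested, 12387 had at least 1 read in the 9 libraries. Of these, 60 had reads in all 3 FOXF1 plasmid libraries and none in the empty vector libraries, and 107 the reverse. The highest count in any such gene was 15 reads in a library (HIST1H4J, a histone gene, chosen here for that count, with 4, 15 and 3 reads). The mucin gene MUC4, also chosen after its values were seen, was among those of the empty vector alone, with 5, 1 and 5 reads. The empty vector libraries held 37937873, 39354531 and 39708872 counts, and the FOXF1 plasmid libraries 39100049, 34390666 and 36877641. At so few reads, genes can be missed by depth alone, and the part of depth in the counts of 60 and 107 was not tested.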

How the data were processed

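RNA of EPC2 cells was sequenced in 9 libraries. Per the labels' protocols, the kit was stranded and selected mRNA. The deposited table holds raw read counts for 64253 Ensembl genes. The submitters' processing notes name bcl2fastq, STAR 2.5.2b, HTSeq and GRCh38, and the strand setting of the counting is not given in the sources used here. Gene coordinates, GC content and lengths (longest transcript) come from GENCODE release 29, which holds 56591 of the identifiers.

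Counts were analysed in R 4.3.3 with edgeR 4.0.16. Genes were kept by filterByExpr (minimum count 10), leaving 16366 (13248 of them coding for proteins). TMM factors scaled the library sizes, and a quasi-likelihood F test was made on a fit of all 9 libraries with a mean per group and 6 residual degrees of freedom (common biological coefficient of variation 0.101). P-values were adjusted by Benjamini-Hochberg over all tested genes, with a threshold of 0.05. SEs were derived from F, as the size of the log2 fold change over the square root of F. Replicates of each group differed by more than sampling noise and were kept as separate samples. A gene without reads could have a level of up to 0.075 to 0.087 CPM, taking 3 counts as the limit, which covers counting error only. Called genes were all named. Values of further genes came from these sets, of which not every member is named: 15 genes from each end of the fold changes among the 150 of smallest p (mean log2 CPM at least 1, no overlap of groups, no clone names or pseudogenes), list members with an unadjusted p below 0.05, and members that define a list. SOX2, LAMB3, CDH3, S100A8, FENDRR, FOXC2, FOXL1, FOXF2, RABAC1, ARL6IP5, SMO, SHH, IFIT1, POLRMT and TFAM were named after their values were seen. The comparison, the 46 gene lists and the tests were chosen with earlier results of these data known, and lists are described by counts and medians with no test of their own. Shares were compared with a two-sided exact permutation test (SciPy 1.17.1). The scripts were tested on simulated counts. Alternatives used DESeq2 1.42.0, limma 3.58.1 (voom), other scalings and filters, GC and length offsets (loess, span 0.5), a replicate block and each library left out.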

Additional observations from a re-analysis of the deposited data

How the results depend on the processing

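Against the 9 genes called higher and 0 lower by edgeR, the settings that moved the count by more than 1.5 times gave 106 higher and 2 lower (DESeq2), 16 higher (RLE factors), 56 higher and 40 lower (no filter on low counts), 14 higher (GC and length offsets) and 1 higher (without mitochondrial genes and pseudogenes); the cause was not tested beyond what each setting leaves out. Limma-voom gave 13, library totals 7, a filter of 1 CPM in 3 libraries 9 and a fit of the 6 transfected libraries 12, each with 0 lower. The 9 genes were all among the calls of limma-voom, RLE factors, both filters and the 6 libraries, and 7 of them among those of DESeq2, which gave FOXF1 and MTND4P12 no adjusted p, and of library totals. With a library left out, between 1 and 154 genes were called higher and between 0 and 172 lower: the lowest count was without FOXF1 plasmid replicate 2, the highest without empty vector replicate 1, and without empty vector replicate 2 it was 2. No fold change of a called or otherwise named gene past the threshold turned its sign. The difference in the mitochondrially encoded share of counts was 2.43 to 3.1 percentage points with a library left out, 2.82 for protein genes and 2.91 with pseudogenes.

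Samples of the groups share replicate numbers, and whether equal numbers were handled together is not known here. Deviations from the group means correlated at -0.09, -0.07 and 0.02 for equal numbers, and between -0.08 and 0.13 for unequal ones. With 3 libraries a group such values cannot decide the question, and the main fit treated the libraries as unpaired. With the replicate number as a block 16 genes were called higher, and 26 with the block and GC and length offsets. Depth limits the weakly expressed genes: of the 222 genes with a fitted change beyond 2-fold, FOXF1 was the only one whose mean log2 CPM was 1 or more. The list medians under other scalings and the list counts without a library were chosen after seeing the data.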
